A study of Bos taurus with 11 samples.

Results

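Translation initiation and elongation factors, the proteins that load ribosomes onto mRNA and move them along it, were followed in the uterine lining of dairy cows after calving. The genes were chosen by name: those whose symbol begins with EIF1 to EIF6 or with EEF1 or EEF2, leaving out the EIF2AK kinases and the EIF4EBP binding proteins, which are regulators of the factors. A probe set counted only where the platform annotation gave it exactly 1 symbol, and the probe set with the highest mean over all arrays stood for its gene. This gave 46 genes, covered by 61 probe sets, of 9155 genes in all. A RefSeq gene table lists 58 symbols that fit the name rule, and the other 12, among them EIF5A, EIF5B, EIF4G2, EIF2S2 and EIF2B5, were not analysed here.

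RNA came from the endometrium, the mucosa of the uterus, of 11 multiparous Holstein-Friesian cows (parity 4.7 on average), slaughtered 14 ± 0.4 days after calving, with 1 Affymetrix bovine array for each cow. From day 2 after calving, the 5 cows of the mild group ate grass silage freely with 8 kg of concentrate a day and were milked 1 time a day, which gives a mild negative energy balance, a state in which milk and maintenance cost more energy than feed supplies. The 6 cows of the severe group were limited to 25 kg silage and 4 kg concentrate daily, with 3 milkings a day. Silage and concentrate had the same composition in both groups, so that feed allowance and milking frequency differed together, and no group without an energy deficit was analysed here. Values are log2 signals, a log2 difference is severe minus mild, errors of group means are SD with n = 5 mild and n = 6 severe cows, and cow numbers are names only.

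Translation starts when eIF2 brings the initiator tRNA to the small ribosomal subunit, where eIF1, eIF1A and eIF3 hold it open for scanning, while eIF4F binds the cap of the mRNA and unwinds its leader. eIF2B recharges eIF2 with GTP, and stress kinases that phosphorylate eIF2 block this step, whereas mTOR signalling, which senses amino acids and energy, frees the cap-binding protein eIF4E from its binding proteins. During elongation eEF1A delivers each aminoacyl-tRNA, the eEF1B subunits recharge eEF1A, and eEF2 moves the ribosome on. Much of this control works through phosphorylation, and these arrays measured RNA alone.

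RNA levels of the factors lay close together in mild and severe cows. Of the 46 genes 19 averaged higher and 27 lower in severe cows, with a median log2 difference of -0.03 beside -0.0038 over all 9155 genes. The differences ran from -0.26 in EIF1AX to 0.21 in EIF2D, a narrow range in which 1 of 46 genes (2.17%) was farther than 0.25 from 0, beside 2152 of 9155 genes (23.5%). The median size of the difference was 0.069 in the factors and 0.12 in all genes. It was 0.048 in 67 cytosolic and 0.13 in 67 mitochondrial ribosomal protein genes. The factors also varied less among cows of the same group, with a median within-group SD of 0.14 beside 0.18 in all genes. No factor passed the limma test at a Benjamini-Hochberg adjusted p under 0.05, and their smallest adjusted p was 0.307. The share called over all 24016 probe sets was 0%.

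At an unadjusted limma p under 0.05, 4 of the 46 genes were lower in severe cows and 0 were higher. They were EIF4G3, EIF3I, EIF2B3 and EIF1AX, each part of a different complex. Of all genes, 7.46% were lower and 8.45% higher at that threshold, 15.9% in either direction, so the factors' share of 8.70% was near the background for lower values and under it for both directions together. The count went to 1 without mild 4, to 2 without mild 2 and to 11, all lower, without mild 5. The share of all genes at that threshold was 11.1%, 11.5% and 20.8% in these fits, in that order. The signals of the 2 groups overlapped in every one of the 46 genes, while 1.19% of all genes had groups that did not overlap.

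The intervals show what size of difference these 11 arrays can still hold. In 43 of 46 factors (93.5%) the 95% interval of the log2 difference lay within 0.5 of 0, beside 68.1% of all genes, and in all 46 within 0.6. Among the probe sets used, the widest reach was -0.55 to 0.16, in EIF4G1. These intervals do not cover other probe sets of a gene, such as 1 of EIF4H at -0.41 ± 0.21 (SE). Standard errors of the difference ran from 0.06 to 0.16 with a median of 0.09. In bulk RNA of a tissue, fewer cells of a type and less RNA per cell cannot be told apart.

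**Figure D1:**
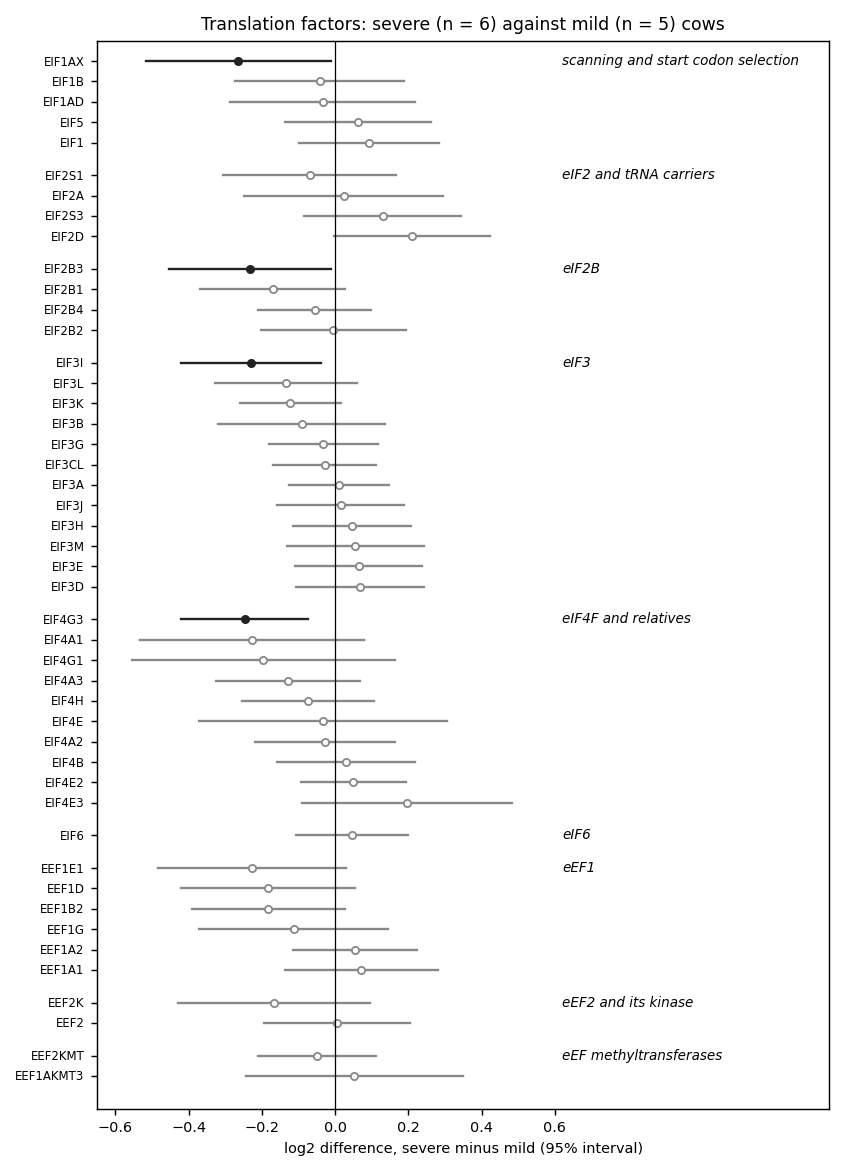
Log2 difference, severe minus mild, of the 46 translation factors (x axis) with its 95% interval (lines), by factor group, from 6 severe and 5 mild cows. Filled points mark the 4 genes at an unadjusted p under 0.05, which all lie below 0, between -0.26 and -0.23.

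Signals of immune cell markers lay higher in severe cows. Neutrophil markers averaged higher in severe cows in 9 of 11 measured genes. Their summed linear signal was 1606 to 4384 in mild and 5857 to 31701 in severe cows. MPO, ELANE and CAMP, which encode granule proteins, were dim on all arrays. LTF, another granule gene of that list, had a mean of 11.15 and a log2 difference of 0.91 ± 0.30 (SE; unadjusted p = 0.0114, adjusted p = 0.308, limma). Pan-leukocyte markers averaged higher in 5 of 5 genes, with sums of 1365 to 2952 and 2671 to 9737. Markers of dividing cells averaged lower in 10 of 10 genes, with a sum of 1412 to 4018 in mild and 1115 to 2611 in severe cows. Epithelial markers averaged higher in 5 of 12 genes, with sums of 4597 to 8772 and 2139 to 7059, and of these KRT8 was dim on all arrays. The stromal fibroblast sum overlapped between groups, at 57693 to 85814 and 62004 to 80140. All arrays had a median of 6.20, and the mean 3' minus 5' difference of control transcripts, a measure of RNA quality, was 0.56 ± 0.07 in mild and 0.59 ± 0.14 in severe cows. With the neutrophil score of each cow in the fit, 1 of the 46 factors, EIF4G3, was left at an unadjusted p under 0.05, and 10 factors were higher and 36 lower. In that fit 5.80% of all genes were at that threshold. The neutrophil score did not overlap between groups, at -1.31 to -0.46 in mild and -0.13 to 1.59 in severe cows. A fit that holds both therefore cannot tell the score from the group. Of the other markers only the epithelial score was put into a fit, with which 5 factors and 15.8% of all genes were at that threshold. The part of the rest in the factors' values was not tested.

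Scanning factors gave the largest single difference. EIF1AX, which encodes eIF1A and helps the small subunit scan and choose the start codon, read 10.90, 10.93, 10.86, 10.85 and 10.59 in mild cows 1 to 5 and from 10.27 to 10.84 with a median of 10.61 in severe cows. Severe 2 and severe 4 were lowest, and mild 5 lay below the median of the severe cows, so the groups overlapped. The mean was 10.83 ± 0.14 in mild and 10.56 ± 0.23 in severe cows, a log2 difference of -0.26 ± 0.12 (SE; unadjusted p = 0.0416, adjusted p = 0.373, limma), and 5 of 6 severe cows lay below the mild mean. The 4 cows with the lowest EIF1AX were severe 4, severe 2, severe 1 and mild 5. The dividing-cell score, the mean deviation of its 10 markers, was lowest in 3 of these, at -1.004 in severe 4, -0.84 in severe 2 and -0.52 in mild 5, but it was 0.13 in severe 1, and its part in the result was not tested.

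EIF1, the other guardian of start codon choice, read 12.33, 11.89, 12.19, 12.03 and 12.04 in mild cows and 12.08 to 12.36, median 12.17, in severe cows. Its log2 difference was 0.09 ± 0.09 (SE), and mild 1 and mild 3 lay within the severe range with the other mild cows below it. Its paralog EIF1B gave -0.04 ± 0.10, EIF1AD, a relative of eIF1A, gave -0.03 ± 0.12, and EIF5, which makes eIF2 hydrolyse its GTP at the start codon, gave 0.06 ± 0.09. The median of these 5 genes was -0.03.

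Among the factors that carry initiator tRNA, EIF2D stood at the upper end of all 46 differences. EIF2D encodes a factor that can place tRNA on the ribosome without GTP and also helps recycle ribosomes. It read 7.04, 6.97, 7.02, 6.77 and 6.64 in mild cows and 6.97 to 7.30, median 7.04, in severe cows. Mild 2, mild 4 and mild 5 lay below every severe cow, mild 2 by less than the rounding, while mild 1 and mild 3 lay within the severe range. The means were 6.89 ± 0.17 and 7.10 ± 0.15, a log2 difference of 0.21 ± 0.10 (SE; unadjusted p = 0.0528, adjusted p = 0.394, limma), with 6 of 6 severe cows above the mild mean.

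The eIF2 subunits themselves lay closer to 0. EIF2S3, the gamma subunit that binds GTP and tRNA, read 10.75, 10.89, 10.56, 10.54 and 10.54 in mild cows and 10.56 to 11.01, median 10.79, in severe cows, a log2 difference of 0.13 ± 0.10 (SE). A further EIF2S3 probe set gave 0.06 ± 0.08. EIF2S1, the alpha subunit that the stress kinases phosphorylate, gave -0.07 ± 0.11 and the alternative factor EIF2A 0.02 ± 0.12. Over these 4 genes the median was 0.08, with 3 higher and 1 lower.

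All 4 measured subunits of eIF2B averaged lower in severe cows, with a median log2 difference of -0.11, although 1 of the 4 differences was at an unadjusted p under 0.05. EIF2B3, the gamma subunit, read 6.75, 6.99, 6.76, 6.996 and 6.86 in mild cows and 6.42 to 6.97, median 6.61, in severe cows. Severe 3 reached the upper mild cows, and the other 5 severe cows lay below the lowest mild cow. The means were 6.87 ± 0.12 and 6.64 ± 0.20, a log2 difference of -0.23 ± 0.10 (SE; unadjusted p = 0.0405, adjusted p = 0.371, limma). With the neutrophil score in the fit the difference was -0.01 (unadjusted p = 0.951, limma), but that fit cannot tell the score from the group. A dimmer probe set of EIF2B3, under 5.52, the limit below which the dimmest 40% lay, gave -0.03 ± 0.11.

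EIF2B2, the beta subunit, read 8.86, 8.59, 8.68, 8.65 and 8.32 in mild cows and 8.49 to 8.73, median 8.60, in severe cows. The mild cows spanned the whole severe range, and the log2 difference was -0.0050 ± 0.09 (SE). EIF2B1, the alpha subunit through which eIF2B senses phosphorylated eIF2, gave -0.17 ± 0.09 (unadjusted p = 0.0852, limma) with 6 of 6 severe cows below the mild mean, and EIF2B4, the delta subunit, gave -0.06 ± 0.07.

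The eIF3 complex, the large scaffold that joins the small subunit to eIF4F, was the best covered, with 12 genes. They split into 6 higher and 6 lower with a median of -0.009, and 11 of the 12 differences lay between -0.14 and 0.07. EIF3I, a small peripheral subunit, was apart at -0.23 ± 0.09 (SE; unadjusted p = 0.0221, adjusted p = 0.335, limma). It read 10.45, 10.61, 10.56, 10.71 and 10.40 in mild cows and 10.08 to 10.47, median 10.33, in severe cows, with means of 10.55 ± 0.12 and 10.31 ± 0.14. Mild 1 and mild 5 lay within the severe range, and 6 of 6 severe cows were below the mild mean.

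EIF3E, the eIF3 subunit with the highest mean signal, read 11.996, 11.83, 11.63, 11.72 and 11.72 in mild cows and 11.70 to 11.96, median 11.86, in severe cows. The groups overlapped broadly, with a log2 difference of 0.06 ± 0.08 (SE). EIF3K and EIF3L, which sit side by side at the rim of the complex, gave -0.12 ± 0.06 (unadjusted p = 0.0779, limma) and -0.14 ± 0.09, each with 6 of 6 severe cows below the mild mean. The core subunits EIF3A, EIF3B and EIF3CL, the last being the annotated symbol of the EIF3C type, gave 0.01 ± 0.06, -0.09 ± 0.10 and -0.03 ± 0.06. Another EIF3B probe set gave -0.20 ± 0.15. The cap-contacting subunit EIF3D gave 0.07 ± 0.08, and EIF3G, EIF3H, EIF3J and EIF3M lay between -0.03 and 0.05.

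EIF4G3 had the smallest p of the 46 genes. It encodes a large scaffold of eIF4F, a paralog of EIF4G1, on which the cap-binding protein and the helicase assemble. It read 9.16, 8.83, 8.97, 8.94 and 9.13 in mild cows and 8.59 to 8.88, median 8.76, in severe cows. Mild 2 lay within the severe range and the other 4 mild cows above every severe cow. The means were 9.004 ± 0.14 and 8.76 ± 0.10, a log2 difference of -0.25 ± 0.08 (SE; unadjusted p = 0.00935, adjusted p = 0.307, limma), or 1.19-fold lower.

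A dimmer EIF4G3 probe set, not used for the count, pointed the same way. It averaged 7.38 ± 0.11 in mild and 7.08 ± 0.11 in severe cows, a log2 difference of -0.30 ± 0.08 (SE; unadjusted p = 0.00188, adjusted p = 0.285, limma), and there the groups did not overlap. The paralog EIF4G1 averaged 9.50 ± 0.23 and 9.30 ± 0.33, a difference of -0.20 ± 0.16 (SE), which came to -0.07 without severe 2, the lowest cow at 8.65.

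EIF4A1, the helicase that unwinds the leader, read 10.85, 10.86, 10.83, 10.92 and 10.28 in mild cows and 10.23 to 10.80, median 10.58, in severe cows. Every mild cow but mild 5 lay above the highest severe cow, whereas mild 5 lay with severe 2 and severe 4 at the bottom. These 3 cows also had the lowest dividing-cell scores. Severe 1, the next lowest in EIF4A1 at 10.50, had a score of 0.13, and the part of this score was not tested. The log2 difference was -0.23 ± 0.14 (SE; unadjusted p = 0.133, limma), and without mild 5 it was -0.34 (unadjusted p = 0.0138, limma). Without severe 2 it was -0.17, and the largest unadjusted p with 1 cow left out was 0.254 (limma).

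EIF4A2, which is made in many resting tissues, read 12.80, 12.38, 12.45, 12.48 and 12.31 in mild cows and 12.36 to 12.56, median 12.46, in severe cows. Its log2 difference was -0.03 ± 0.09 (SE), with mild 1 above all other cows. EIF4A3, a part of the exon junction complex, gave -0.13 ± 0.09, and the helicase cofactors EIF4B and EIF4H gave 0.03 ± 0.09 and -0.07 ± 0.08. Another EIF4H probe set, not dim, gave -0.41 ± 0.21 (SE; unadjusted p = 0.0768, limma), and a dim one gave -0.12 ± 0.07.

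EIF4E, the cap-binding protein, averaged 9.90 ± 0.24 in mild and 9.87 ± 0.30 in severe cows, a log2 difference of -0.03 ± 0.16 (SE). The 3 array control probe sets for EIF4E, at the 3' end, the middle and the 5' end of the transcript, gave -0.14 ± 0.11, -0.20 ± 0.18 and -0.19 ± 0.24, each with an interval that includes 0. They were not counted as members.

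The cap-binding relatives EIF4E2 and EIF4E3 depended on the probe set. For EIF4E2, which can repress translation when it holds the cap, the probe set with the higher mean gave 0.05 ± 0.07 (SE; unadjusted p = 0.470, limma). Its other probe set averaged 7.94 ± 0.09 in mild and 7.62 ± 0.15 in severe cows, a log2 difference of -0.32 ± 0.08 (SE; unadjusted p = 0.00221, adjusted p = 0.285, limma), and its groups did not overlap. For EIF4E3 the 2 probe sets gave 0.20 ± 0.13 and -0.24 ± 0.12. Of the 14 factors with several probe sets, 6 had a probe set of the opposite sign, among them EIF5 at 0.06 ± 0.09 and -0.24 ± 0.19.

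**Figure D2:**
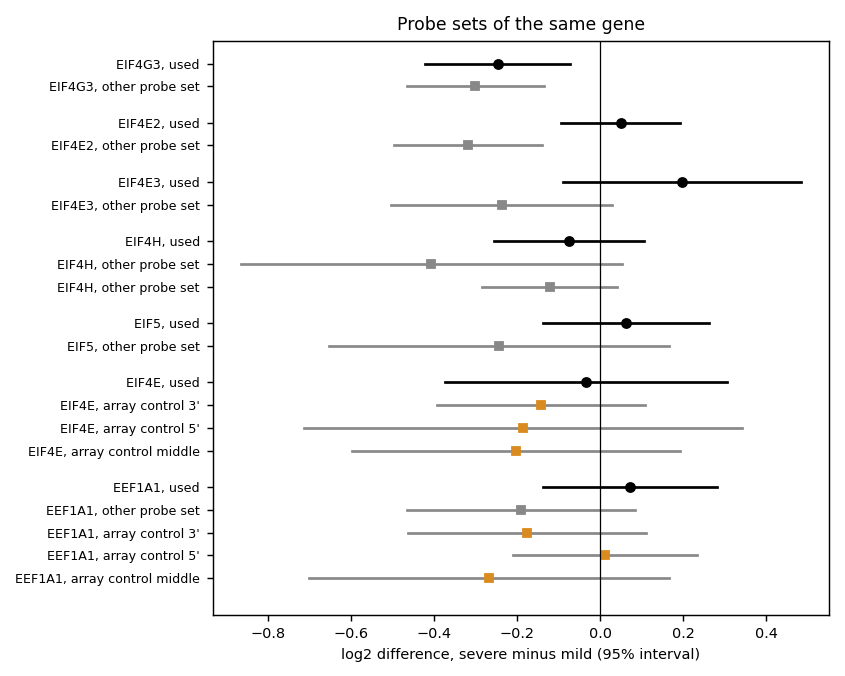
Log2 difference, severe minus mild, with its 95% interval (x axis), for several probe sets of 7 factors, from 6 severe and 5 mild cows. Circles are the probe sets used, grey squares other probe sets and orange squares array controls; both EIF4G3 probe sets lie below 0, while those of EIF4E2 and EIF4E3 lie on opposite sides.

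EIF6, which keeps free large ribosomal subunits from joining too early, read 9.52, 9.40, 9.35, 9.34 and 9.25 in mild cows and 9.33 to 9.58, median 9.39, in severe cows. The groups overlapped between 9.33 and 9.52, with a log2 difference of 0.05 ± 0.07 (SE).

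**Figure D3:**
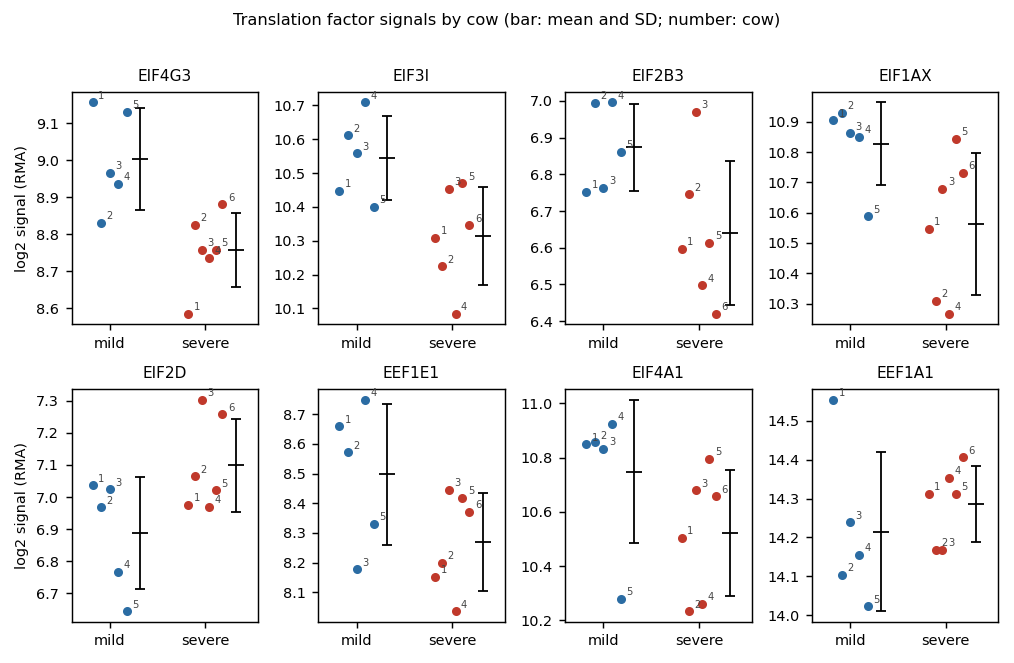
Log2 signal (y axis) of 8 translation factors in each of 5 mild and 6 severe cows (points, numbered by cow), with the group mean and SD (bars). EIF4G3, EIF3I, EIF2B3 and EIF1AX averaged lower in severe cows with overlapping groups, and mild 5 stands apart from the other mild cows in EIF1AX and EIF4A1.

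Of the 6 eEF1 genes 2 averaged higher and 4 lower, and 0 passed. EEF1A1, the tRNA carrier and among the brightest signals of the array, read 14.55, 14.10, 14.24, 14.16 and 14.02 in mild cows and 14.17 to 14.41, median 14.31, in severe cows. Its log2 difference was 0.07 ± 0.10 (SE), and the mild cows held both the highest and the lowest value. Another EEF1A1 probe set gave -0.19 ± 0.13, and the array controls gave -0.18 ± 0.13 at the 3' end, -0.27 ± 0.20 in the middle and 0.01 ± 0.10 at the 5' end, so its sign depended on the probe set. EEF1A2, the paralog of muscle and nerve, had a mean of 3.96, under the dim limit, and a difference of 0.05.

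The eEF1B subunits EEF1B2, EEF1D and EEF1G gave -0.18 ± 0.10, -0.18 ± 0.11 and -0.11 ± 0.12, and 0 of the 3 were at an unadjusted p under 0.05 in limma. Without mild 5 all 3 were, at -0.26, -0.28 and -0.22, and without mild 1 they were -0.12, -0.13 and -0.034 with 0 at that threshold. EEF1E1, a scaffold protein of the multi-synthetase complex, read 8.66, 8.57, 8.18, 8.75 and 8.33 in mild cows and 8.04 to 8.45, median 8.28, in severe cows. Mild 3 and mild 5 lay within the severe range, and the log2 difference was -0.23 ± 0.12 (SE; unadjusted p = 0.0776, adjusted p = 0.444, limma). The median over the 6 eEF1 genes was -0.15, and it was -0.08 without mild 1 and -0.24 without mild 5.

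EEF2, the translocase, read 13.52, 13.20, 13.19, 13.23 and 13.07 in mild cows and 13.03 to 13.35, median 13.29, in severe cows. The groups overlapped, and the log2 difference was 0.0048 ± 0.09 (SE), with an interval of -0.19 to 0.20. EEF2K, the kinase that switches eEF2 off and is itself activated under energy stress through AMPK, read 8.67, 9.12, 8.77, 8.95 and 9.30 in mild cows and 8.52 to 8.91, median 8.86, in severe cows. Mild 2, mild 4 and mild 5 lay above every severe cow, and the difference was -0.17 ± 0.12 (SE; unadjusted p = 0.188, limma). It was -0.08 without mild 5, and another EEF2K probe set gave -0.05 ± 0.16.

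The methyltransferases that modify the elongation factors lay near 0. EEF1AKMT3, which methylates eEF1A, read 5.72, 6.24, 5.96, 5.96 and 5.71 in mild cows and 5.62 to 6.20, median 6.06, in severe cows, a log2 difference of 0.05 ± 0.14 (SE). EEF2KMT, which methylates eEF2, read 3.40, 3.77, 3.58, 3.59 and 3.56 in mild cows and 3.39 to 3.60, median 3.54, in severe cows, a difference of -0.05 ± 0.07 (SE). The latter signal lay under the dim limit, where differences are compressed.

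The mild cows differed among themselves. Taking each factor's deviation from its own mean over all cows, the median over the 46 genes was 0.15 in mild 1 and -0.13 in mild 5, and between -0.05 and 0.05 in the other 9 cows. Mild 1 had the highest value of all cows in 17 of the 46 genes and mild 5 the lowest in 16. Over all 9155 genes, too, the median was highest in mild 1, at 0.026, and lowest in mild 5, at -0.052. The spread was widest in the eEF1 genes, with medians of 0.31 in mild 1 and -0.22 in mild 5. The 67 cytosolic ribosomal protein genes had their extremes in the same cows, with medians of 0.27 and -0.20, and 63 of 67 genes were above their own mean in mild 1 and 1 of 67 in mild 5. The median over the 46 factors was 0.0032 without mild 1, when 25 genes were higher and 21 lower, and -0.06 without mild 5. With both cows left out, a choice made after seeing the data, it was -0.02 and 7 factors were at an unadjusted p under 0.05, of which EIF3I and EIF1AX were among the 4 above. In that fit 18.9% of all genes were at that threshold.

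**Figure D4:**
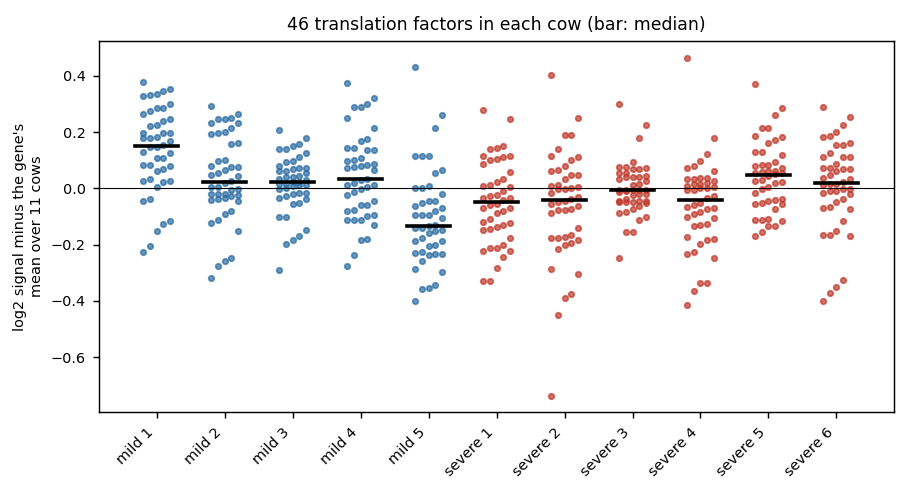
Deviation of each of the 46 translation factors from its mean over 11 cows (y axis, log2) in each cow (x axis), with the median of each cow as a bar. The medians of mild 1 (0.15) and mild 5 (-0.13) lie farthest from 0, and those of the 6 severe cows lie between -0.05 and 0.05.

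The list of regulators also holds genes downstream of eIF2 phosphorylation, such as ATF4 and TRIB3. Among its 26 measured genes, 13 averaged higher and 13 lower. At an unadjusted p under 0.05 there were 3 higher and 0 lower genes, and 0 at an adjusted p under 0.05 (limma). That share of 11.5%, all higher in severe cows, stood beside 8.45% of all genes higher and 15.9% in either direction. ATF4, the transcription factor whose own translation increases when eIF2 is phosphorylated, read 10.74, 10.58, 11.05, 10.90 and 10.51 in mild cows and 10.94 to 11.32, median 11.02, in severe cows. Mild 3 lay within the severe range, and 6 of 6 severe cows were above the mild mean. The log2 difference was 0.32 ± 0.11 (SE; unadjusted p = 0.0124, adjusted p = 0.310, limma).

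TRIB3, a pseudokinase gene that ATF4 and CHOP switch on, read 5.02, 4.70, 5.01, 4.81 and 4.63 in mild cows and 4.89 to 5.47, median 5.19, in severe cows. Its log2 difference was 0.35 ± 0.12 (SE; unadjusted p = 0.0114, adjusted p = 0.308, limma), at a mean signal under the dim limit in both groups. RHEB, the small GTPase that activates mTOR, read 10.01, 9.93, 10.12, 10.01 and 10.08 in mild cows and 10.04 to 10.30, median 10.19, in severe cows, a difference of 0.15 ± 0.07 (SE; unadjusted p = 0.0400, adjusted p = 0.370, limma). In both genes the groups overlapped.

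Other genes of this list stayed above that threshold. DDIT3, which encodes CHOP and was singled out after its values were seen, as were the other genes of this paragraph, gave 0.33 ± 0.17 with 6 of 6 severe cows above the mild mean, and mild 5 was the highest of all cows. The eIF2 kinases EIF2AK1, EIF2AK2 and EIF2AK3 gave 0.02 ± 0.14, -0.06 ± 0.27 and -0.07 ± 0.10. EIF4EBP1, which sequesters eIF4E until mTOR phosphorylates it, gave -0.16 ± 0.09 (unadjusted p = 0.0929, limma).

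Factors that end translation, recycle ribosomes or bind the poly(A) tail held 4 lower and 1 higher genes at an unadjusted p under 0.05 among 23 measured, 21.7% beside 15.9% of all genes, and 0 at an adjusted p under 0.05 (limma). DENR had the largest difference of them. It has 2 probe sets, and the values here are those of the 1 with the higher mean. Its protein forms with that of MCTS1 a pair that resembles eIF2D in parts and removes tRNA from recycled small subunits. DENR read 8.57, 8.47, 8.55, 8.55 and 8.27 in mild cows and 7.65 to 8.30, median 8.11, in severe cows, and the groups touched at mild 5 and severe 5. The log2 difference was -0.43 ± 0.11 (SE; unadjusted p = 0.00241, adjusted p = 0.285, limma).

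MCTS1 read 7.64, 7.76, 7.57, 7.54 and 7.48 in mild cows and 7.24 to 7.64, median 7.39, in severe cows, with severe 5 among the upper mild cows. Its log2 difference was -0.19 ± 0.09 (SE; unadjusted p = 0.0484, adjusted p = 0.387, limma). EIF2D, whose value above was 0.21, thus lay on the other side of 0 from both DENR and MCTS1. The difference between these genes was not tested.

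PABPC4, a poly(A)-binding protein that contacts the eIF4G scaffold, read 10.59, 10.61, 10.56, 10.59 and 10.29 in mild cows and 10.04 to 10.48, median 10.16, in severe cows. Mild 5 lay within the severe range and the other mild cows above it, with a log2 difference of -0.30 ± 0.10 (SE; unadjusted p = 0.00920, adjusted p = 0.307, limma). The remaining 2 genes of this list at that threshold, GFM2 and TSFM, act in mitochondria.

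**Figure D5:**
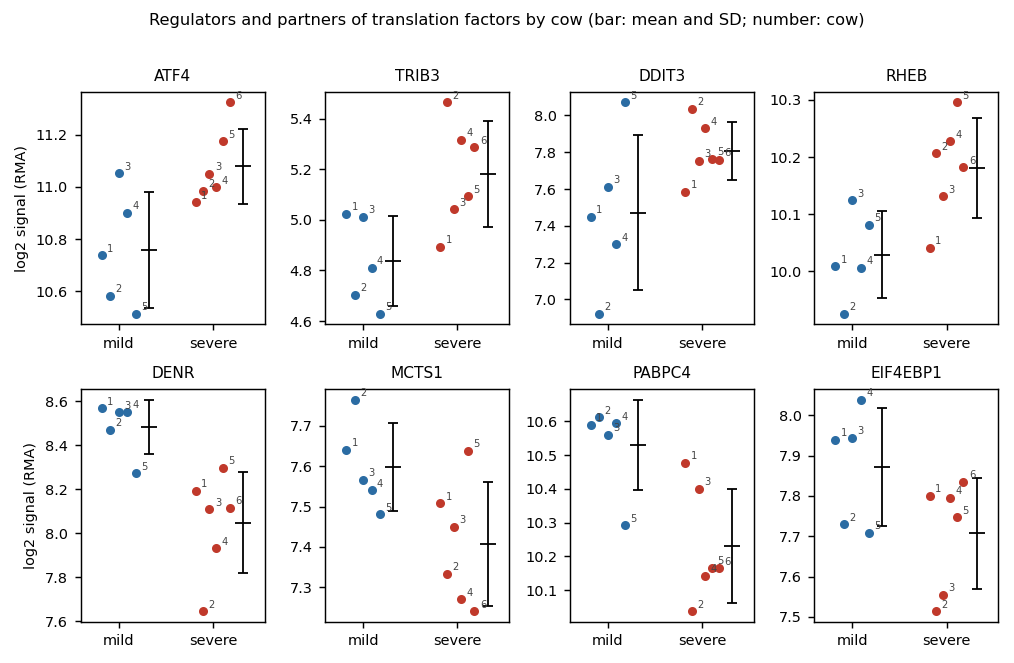
Log2 signal (y axis) of 8 genes from the regulator and partner lists in 5 mild and 6 severe cows (points, numbered by cow). Bars give the group mean and SD. ATF4, TRIB3 and RHEB averaged higher and DENR, MCTS1 and PABPC4 lower in severe cows, at unadjusted p-values between 0.00241 and 0.0484.

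Among 18 cytosolic aminoacyl-tRNA synthetase genes, with their scaffold proteins, 5 averaged higher and 13 lower. At an unadjusted p under 0.05 there was 1 lower gene, 5.56% beside 7.46% of all genes lower and 15.9% in either direction. LARS1, which charges leucine tRNA and takes part in leucine sensing by mTOR, read 9.23, 9.21, 9.12, 9.13 and 8.996 in mild cows and 8.82 to 9.03, median 8.94, in severe cows. Mild 5 lay within the severe range, and the log2 difference was -0.21 ± 0.07 (SE; unadjusted p = 0.0105, adjusted p = 0.308, limma).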

How the data were processed

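Endometrial RNA of 11 cows, 5 mild and 6 severe, was measured on 1 Affymetrix bovine array each, from Trizol total RNA labelled with biotin. The deposited values were made with RMA (background correction, quantile normalization, probe summary), per the submitters' processing notes. Its software and version were not given in the sources used here. That the deposited values are on a log2 scale was read from their range, 2.63 to 14.6. Quantile normalization hides a shift common to all transcripts. The number of arrays limits the precision.

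Of 24128 probe sets, 112 array controls were left out and 24016 tested. The platform annotation gave 13292 of them 1 symbol and 86 several. Through gene numbers, 13263 matched a RefSeq gene table (ARS-UCD2.0, used for names only), and 0 were renamed. Sequences were not analysed here.

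Differences between severe and mild cows were fitted with lmFit and eBayes of limma 3.58.1 under R 4.3.3, without covariates and two-sided. P-values were adjusted by Benjamini-Hochberg over every tested probe set, with a threshold of 0.05. Genes were read from that fit. The fit was tested on simulated data. A signal is called dim under 5.52, below which the dimmest 40% lay.

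The members, gene lists and tests were chosen with earlier results of these data known. The values of the 5 mild cows and the lowest, median and highest of the 6 severe cows are printed for members at an unadjusted p under 0.05, for the member with the smallest p and the highest mean signal of each factor group, and for genes at an unadjusted p under 0.05 in the lists of regulators, of termination, recycling and poly(A) factors and of tRNA synthetases. Marker and ribosomal protein lists are given as counts and sums. EIF4A1 and the genes named as such in the text were chosen after their values were seen.

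Alternatives were a filter on dim probe sets, a second quantile normalization, a common median, array weights, a trended and robust eBayes, epithelial score, neutrophil score or 3' minus 5' difference as a covariate, cows left out, other thresholds, and the mean or the most variable probe set of a gene. Cows were numbered in sample order. Which cow was in which allocation block is not given in the sources. Python 3.11.15 with pandas 2.3.3 and matplotlib 3.10.9 made tables and figures.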

Additional observations from a re-analysis of the deposited data

Results flagged for a closer look

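In 7 of 92 groups of values checked, 1 for each of 46 factors in mild and in severe cows, a single cow stood farther from the others than Dixon's critical value allows, which chance gives in about 5% of groups. Mild 5 was the low cow in 4 of them. EIF1AX was 10.59 in mild 5 against 10.85 to 10.93 in the other mild cows, EIF4A1 10.28 against 10.83 to 10.92, EIF4E 9.48 against 9.93 to 10.04, and EIF4H, a cofactor of the eIF4A helicase, 10.10 against 10.44 to 10.54. EIF2S1 was 9.10 in mild 1 against 8.82 to 8.86 in the other mild cows. Among severe cows, EIF4G1 was 8.65 in severe 2 against 9.31 to 9.57, and EIF3A was 10.41 in severe 5 against 10.24 to 10.29.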

How the results depend on the processing

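No paired analysis was possible because cow numbers were given in sample order and no label ties a mild to a severe cow. Over all probe sets 0 were at an adjusted p under 0.05 in limma, beside 3085 at an unadjusted p under 0.05. Leaving out 1 cow gave 0 to 16 probe sets, with 16 without severe 1 and 2 without severe 3, and leaving out both mild 1 and mild 5 gave 1. None of the 46 factors was among them in any of the 23 other settings. The 4 factors at an unadjusted p under 0.05 became 7 after a second quantile normalization, where 17.0% of all genes were at that threshold. They became 1 with the neutrophil score (5.80% of all genes) and 7 without both mild 1 and mild 5 (18.9%). With 1 cow left out they ranged from 1 (without mild 4, 11.1% of all genes) to 11 (without mild 5, 20.8%). At an unadjusted p under 0.01 the count was 1, for which no share of all genes is given here. EIF4G3 stayed under 0.05 in 22 of 23 other settings, EIF3I in 21, EIF1AX in 14 and EIF2B3 in 11, and the exception for EIF4G3 was an unadjusted p = 0.0833 (limma) without both mild 1 and mild 5. The second quantile normalization turned the split of 19 higher and 27 lower factors into 10 and 36. The eIF3 median was -0.079 with the neutrophil score, the eIF4F median -0.16 with the most variable probe set, and the scanning median 0.10 without both mild 1 and mild 5. With 1 cow left out, the eIF2B median ran from -0.14 to -0.067 (without mild 4), the eIF4F median from -0.14 (without mild 5) to -0.019 (without mild 1), the eIF2 median from 0.031 (without severe 1) to 0.14 and the scanning median from -0.11 (without mild 2) to 0.040 (without mild 1). The causes were not tested.

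Among single factors 25 of 46 changed sign in some setting, none of them with a main difference beyond 0.20 in size. With the neutrophil score these were EIF1 -0.033, EIF5 -0.16, EIF2A -0.019, EIF3A -0.076, EIF3J -0.20, EIF4B -0.012, EIF4E2 -0.039, EIF6 -0.023, EEF1A1 -0.094, EEF1A2 -0.065, EEF2 -0.094, EEF2K 0.029 and EEF2KMT 0.049. The second quantile normalization gave EIF1 -0.0099, EIF3A -0.026, EIF3E -0.011, EIF3H -0.0052, EIF3J -0.014, EIF3M -0.025, EIF4B -0.026, EEF1A1 -0.0025 and EEF2 -0.067. The mean over probe sets gave EIF5 -0.091, EIF3A -0.030, EIF4E2 -0.13, EIF4E3 -0.020 and EEF1A1 -0.060, and the most variable probe set EIF5 -0.24, EIF3A -0.070, EIF4E2 -0.32 and EEF1A1 -0.19. Without both mild 1 and mild 5 the values were EIF1B 0.098, EIF2A -0.023, EIF3A -0.0046, EIF3J -0.0074, EIF4A2 0.021 and EEF1AKMT3 -0.083. Without both mild 2 and severe 5 they were EIF2A -0.043, EIF3A -0.0068, EIF3J -0.039, EEF1A2 -0.0069, EEF2 -0.023 and EEF2KMT 0.00096. Array weights gave EIF2A -0.0058, EIF3J -0.0075 and EIF4A2 0.00074, the epithelial score EIF3J -0.0081 and the 3' minus 5' difference EIF4E 0.036. With 1 cow left out the ranges were EIF1B -0.13 to 0.040, EIF2B2 -0.080 to 0.054, EIF3CL -0.054 to 0.0041, EIF3G -0.061 to 0.012, EIF4A2 -0.071 to 0.052, EIF4E -0.14 to 0.053, EIF3J -0.021 to 0.057, EEF1A2 -0.00062 to 0.089, EEF2 -0.039 to 0.074, EIF1AD -0.11 to 0.029, EIF4B -0.012 to 0.065, EIF2A -0.048 to 0.11 and EIF3A -0.023 to 0.033.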

Other observations

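Mitochondria translate their own mRNAs with separate factors. GFM2, a mitochondrial ribosome recycling factor, read 6.49, 6.55, 6.72, 6.71 and 6.47 in mild cows and 6.20 to 6.42, median 6.36, in severe cows. These groups did not overlap, and the log2 difference was -0.25 ± 0.07 (SE; unadjusted p = 0.00478, adjusted p = 0.294, limma). TSFM, which recharges the mitochondrial elongation factor TUFM, read 7.69, 7.94, 7.92, 7.95 and 7.87 in mild cows and 7.82 to 8.71, median 8.16, in severe cows, a difference of 0.33 ± 0.15 (SE; unadjusted p = 0.0494, adjusted p = 0.387, limma). TUFM gave -0.17 ± 0.09. Of 67 mitochondrial ribosomal protein genes 59 averaged lower and 8 higher in severe cows, with a median of -0.13 and 17 (25.4%) lower at an unadjusted p under 0.05, beside 7.46% of all genes. Mild 2 stood highest, with 65 of these 67 genes above their own mean and a median deviation of 0.22. The 67 cytosolic ribosomal protein genes had a median of -0.0011 and 0 at that threshold. In limma, 0 of both lists were at an adjusted p under 0.05.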
